A study of Mus musculus with 6 samples.

Results

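The constant region genes of the antibody chains and the gene of the J chain were examined in bone endothelial cells (BECs) of adult mice. The list holds 9 genes chosen by symbol: the heavy chain constant genes Ighm, Ighd, Ighg1, Ighg2b, Ighg2c, Ighg3 and Igha, the kappa light chain constant gene Igkc, and Jchain. Of these, 7 matched a row among the 37991 genes of the count table. Ighd and Igha are not analysed here. The libraries came from c57/Bl6 mice aged 12 weeks, 3 from females and 3 from males, with no treatment or transgene in the labels. BECs were purified by their endomucin, a glycoprotein of the surface of bone capillaries, from tibia according to the labels and from tibia and femur in the paper's isolation method. The labels do not say whether each library is 1 animal, so p-values measure the spread between these samples, which may in part be technical. The question was how the levels of these transcripts compare between males and females and between libraries of one sex.

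Antibodies pair heavy chains with light chains, and the constant region of the heavy chain sets the class: mu for IgM, delta for IgD, gamma for the IgG subclasses and alpha for IgA. A B cell first makes mu, can later switch to a gamma or alpha gene by recombination of its DNA, and as a plasma cell secretes antibody in large amounts. The J chain is a small protein that links IgM into pentamers and IgA into dimers. Bone marrow makes B cells and houses long-lived plasma cells, and endothelial cells are not known as a source of antibody.

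On GRCm39 (GENCODE M39), all heavy chain genes lie on the minus strand of chromosome 12. Ighm, with the exons of the mu chain, spans chr12:113382178-113386350, and the gamma genes follow as Ighg3 at chr12:113319844-113324852, Ighg1 at chr12:113288860-113294143, Ighg2b at chr12:113266585-113271553 and Ighg2c at chr12:113248945-113252552. The genes without a row, Ighd at chr12:113370224-113379944 and Igha at chr12:113218450-113223856, belong to the same cluster. Igkc is a single exon at chr6:70703419-70703950 on the plus strand. Jchain lies at chr5:88667668-88675750 on the minus strand, outside the antibody loci.

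The hinge exons show how the gamma genes differ, since the hinge is the flexible joint of IgG whose cysteines bond the heavy chains to each other. Each is exon 2 of its transcript in GENCODE M39, printed 5′ to 3′ in the sense of the gene, with in-frame cysteine codons in capitals. They are shown because the results below treat these 4 genes one by one, and reads must tell them apart:
Ighg1, chr12:113293464-113293502: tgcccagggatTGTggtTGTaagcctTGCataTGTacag
Ighg2b, chr12:113270881-113270946: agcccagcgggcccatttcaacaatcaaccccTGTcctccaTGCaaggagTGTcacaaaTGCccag
Ighg2c, chr12:113251883-113251945: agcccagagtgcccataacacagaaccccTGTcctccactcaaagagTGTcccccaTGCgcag
Ighg3, chr12:113324149-113324196: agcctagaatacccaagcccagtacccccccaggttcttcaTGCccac

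These exons are 39, 66, 63 and 48 nucleotides long and hold 4, 4, 3 and 1 cysteine codons, in the order printed. The preceding exon, CH1, is 291 nucleotides in each of the 4 genes and is far more alike: Ighg1 and Ighg2b share 88.3% of its bases, Ighg2b and Ighg2c 87.6%, and Ighg2c and Ighg3 78.4%. Over whole transcripts, 9.02% of the 40-nucleotide stretches of Ighg2c also occur in another gene, against 6.18% for Ighg2b, 2.06% for Ighg3 and 0.784% for Ighg1. At 100 nucleotides none of their stretches is shared. The labels give reads of 40 nucleotides and the paper 100, so gamma counts carry this uncertainty at the shorter length. For Igkc, 97.8% of the 40-nucleotide and 97.5% of the 100-nucleotide stretches also occur in the annotated gene Gm68839, which matched no row. Ighm shares none at either length.

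Total counts per library lay between 47678806 and 58325745. Levels are given as CPM, the counts set against a library size that TMM scaling had adjusted for composition. Endomucin itself (Emcn) was low, between 3.09 and 10.5 CPM, while the libraries held much RNA of other cells: the summed level of 12 B cell markers was 3680 to 4460 CPM, that of 10 neutrophil markers 17700 to 41600 CPM, and that of 12 endothelial markers 191 to 433 CPM. In such bulk samples, fewer cells of a type and less RNA per cell cannot be told apart. Female replicate 2 and male replicate 2 stood at opposite ends for several results below, and the main ones are also given without them.

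None of the members passed an adjusted p of 0.05 for males against females (edgeR quasi-likelihood test, Benjamini-Hochberg adjustment over 19480 genes), where 8 genes, or 0.0411% of those tested, did. At an unadjusted p under 0.05 the count of members was also 0, beside 4.76% of all genes lower in males and 5.03% higher. This count depended on single libraries. Without female replicate 1, Jchain (edgeR unadjusted p = 0.000179) and Ighg3 (edgeR unadjusted p = 0.0492) were lower in males at that p, beside 4.08% of all genes. For none of the 7 members were the libraries of one sex all above those of the other, as was the case for 14.5% of all genes. DESeq2 called 0 members as well, beside 1.8% of all genes. The fitted difference was below 0, that is lower in males, for 7 of 7 members, against 50.2% of all genes. Its median was -0.57 on the log2 scale, and -0.00125 over all genes. The members were measured in the same libraries, so these signs are not separate observations.

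**Figure D1:**
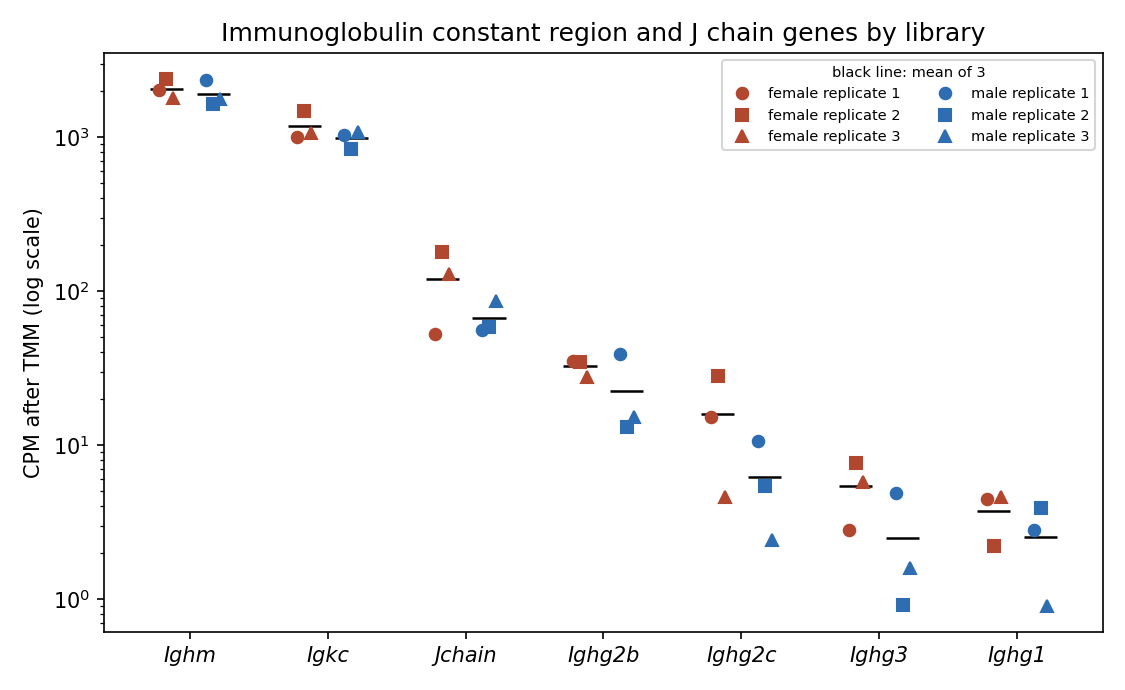
Level of each member in each library, in CPM after TMM on a log axis, with red symbols for females, blue symbols for males and a black line at the mean of 3. Ighm and Igkc sit near 1000 to 2000 CPM with tight groups, whereas Ighg2c spreads from 2.40 to 27.9 CPM, and the sexes overlap for every member.

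Ighm, the constant gene of IgM, had the most counts of the 7. Its level was 2025, 2373 and 1783 CPM in female replicates 1, 2 and 3 and 2361, 1632 and 1758 CPM in male replicates 1, 2 and 3. The highest and the second highest values, 2373 and 2361 CPM, came from libraries of opposite sex, and the groups overlapped. Means were 2060 ± 296.5 CPM in females and 1917 ± 389.8 CPM in males (SD, n = 3 each). The log2 fold change of males over females was -0.10 (SE 0.188, 95% interval -0.52 to 0.31, edgeR adjusted p = 0.892). Without female replicate 2 it was 0.00909, and without male replicate 2 it was 0.00115.

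Among the gamma genes, Ighg2b, which encodes the heavy chain of IgG2b, was the most abundant. It stood at 35.3, 34.8 and 27.9 CPM in females and at 38.8, 13.2 and 15.2 CPM in males. Male replicates 2 and 3 were below all females, but male replicate 1 was above them. The means of 32.7 ± 4.16 and 22.4 ± 14.3 CPM (SD, n = 3 each) gave a log2 fold change of -0.54 (SE 0.368, 95% interval -1.38 to 0.30, edgeR adjusted p = 0.684). With male replicate 1 left out, the fold change was -1.20 and its adjusted p 0.0747, the lowest of the alternatives, which ran up to 1. The fold change was -0.33 without male replicate 3, -0.27 without male replicate 2 and -0.22 without both replicates numbered 2.

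Ighg2c encodes the IgG2c of this strain. Its level was 15.3, 27.9 and 4.62 CPM in females and 10.7, 5.42 and 2.40 CPM in males, from raw counts of 959, 1474, 217, 563, 267 and 114. It was 11.6 times higher in the highest library than in the lowest, and female replicate 3 lay below male replicates 1 and 2. Means were 15.9 ± 11.7 CPM in females and 6.17 ± 4.19 CPM in males (SD, n = 3 each). Despite the largest fitted difference of the members, a log2 fold change of -1.37, the SE was 0.714 and the 95% interval ran from -3.05 to 0.32 (edgeR adjusted p = 0.595). Leaving out 1 library at a time moved it between -2.03 (without male replicate 1) and -0.69 (without female replicate 2).

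Ighg3, the constant gene of IgG3, stood at 2.82, 7.70 and 5.75 CPM in females and at 4.92, 0.913 and 1.60 CPM in males. Male replicate 1 was again the highest male and lay above female replicate 1. Means were 5.42 ± 2.46 and 2.48 ± 2.14 CPM (SD, n = 3 each), with a log2 fold change of -1.12 (SE 0.589, 95% interval -2.45 to 0.21, edgeR adjusted p = 0.58). It was -2.11 without male replicate 1, -0.78 without female replicate 2, -0.73 without male replicate 2 and -0.387 without both replicates numbered 2.

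Ighg1, the constant gene of IgG1, was the lowest by mean. Its levels were 4.44, 2.21 and 4.6 CPM in females and 2.81, 3.88 and 0.907 CPM in males, the lowest resting on 43 counts. Here female replicate 2 was the lowest female and male replicate 2 the highest male, the reverse of their places for Ighm. Means were 3.75 ± 1.33 and 2.53 ± 1.51 CPM (SD, n = 3 each), with a log2 fold change of -0.57 (SE 0.477, 95% interval -1.63 to 0.49, edgeR adjusted p = 0.747). It was -0.168 without male replicate 3, -0.84 without female replicate 2, -1.01 without male replicate 2 and -1.27 without both replicates numbered 2.

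Igkc encodes the constant region of the kappa chain, the light chain of most mouse antibodies. It was measured at 999.6, 1475 and 1066 CPM in females and at 1032, 836.6 and 1078 CPM in males. Female replicate 2 stood above the other libraries, male replicate 2 was the lowest, and the remaining 4 lay between 999.6 and 1078 CPM. Means were 1180 ± 257.2 and 982.4 ± 128.4 CPM (SD, n = 3 each), with a log2 fold change of -0.26 (SE 0.184, 95% interval -0.67 to 0.14, edgeR adjusted p = 0.684). Without female replicate 2 the fold change was -0.07, and without both replicates numbered 2 it was 0.0333.

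Jchain was at 52.9, 180.4 and 128.3 CPM in females and at 55.7, 58.0 and 85.8 CPM in males. Female replicates 2 and 3 were above all males, while female replicate 1 was the lowest of the 6 libraries. Means were 120.5 ± 64.1 and 66.5 ± 16.7 CPM (SD, n = 3 each). The log2 fold change was -0.86 (SE 0.383, 95% interval -1.73 to 0.0168, unadjusted p = 0.0536, edgeR adjusted p = 0.512). Of the 7 members its unadjusted p was the smallest. Without female replicate 2 the fold change was -0.45, and without female replicate 1 it was -1.20.

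**Figure D2:**
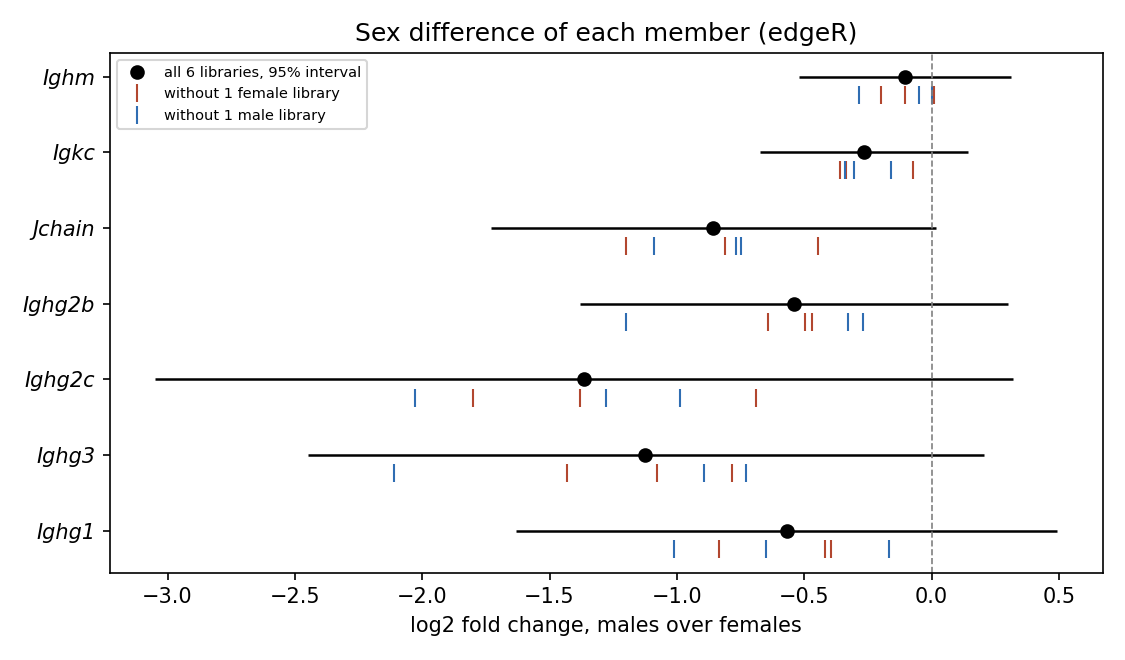
Log2 fold change of males over females for each member, with the edgeR estimate over 6 libraries as a black point, its 95% interval as a line, and a tick below for each fit without 1 female (red) or 1 male (blue) library. Every interval crosses 0, and the interval of Ighg2c, from -3.05 to 0.32, is the widest.

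The members fell apart in how much they varied between libraries of the same sex. The within-sex SD of log2(CPM + 0.5) was 0.247 for Ighm and 0.254 for Igkc, at the 57.6th and 59.4th percentile of all tested genes. It was 0.60 for Ighg2b, 0.69 for Jchain, 0.70 for Ighg1, 0.85 for Ighg3 and 1.12 for Ighg2c, at percentiles from 97 to 99.8. The naive class and the kappa light chain thus had ordinary spread, and the switched classes and the J chain were among the most variable genes of the table. Female replicate 2 was the highest library for 5 of the 7 members (Ighm, Ighg2c, Ighg3, Igkc and Jchain), and male replicate 2 the lowest for 4 (Ighm, Ighg2b, Ighg3 and Igkc).

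Divided by the merged exon length of each gene, so that genes can be compared with each other, Igkc was the highest of the members. Its level per kilobase was 1880, 2770 and 2000 CPM in females and 1940, 1570 and 2030 CPM in males. Ighm followed at 1070, 1260 and 946 CPM per kilobase in females and 1250, 865 and 932 CPM per kilobase in males, below every value of Igkc. Jchain came next, at 21.0 to 71.7 CPM per kilobase, clear of Ighm above it and of Ighg2b below it.

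The gamma genes were lower per kilobase, and in the order Ighg2b, Ighg2c, Ighg3 and Ighg1 each range overlapped with the next. Ighg2b lay between 4.93 and 14.5 CPM per kilobase and Ighg2c between 1.81 and 21.0. Ighg2c exceeded Ighg2b only in female replicate 2, where it came to the lowest value of Jchain. The length used was 1326 nucleotides for Ighg2c, against 2678, 2592 and 2512 for Ighg2b, Ighg1 and Ighg3. The place of Ighg2c thus depends on the annotated lengths. Undivided, Ighg2c was below Ighg2b in female replicate 2, at 27.9 against 34.8 CPM. Ighg3 lay between 0.364 and 3.07 CPM per kilobase, and Ighg1 between 0.350 and 1.78. Ighg2b lay clear above Ighg3 and Ighg1, and Ighg2c just above Ighg1. Ighg2c was also above Ighg3 per kilobase within each of the 6 libraries. The ratio was largest in male replicate 2, at 4.09 against 0.364 CPM per kilobase. It was smallest in female replicate 3, at 3.49 against 2.29, where the undivided levels had the other order, at 4.62 against 5.75 CPM. Ighg3 and Ighg1 changed places between libraries.

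Summed, the 7 members reached 3140, 4100 and 3020 CPM in females and 3510, 2550 and 2940 CPM in males, or 0.255% to 0.391% of all counts. Ighm made up 57.9% to 67.3% of the members' counts and Igkc 29.4% to 36.7%. The number of Igkc counts per heavy chain constant count was 0.48, 0.603 and 0.584 in females and 0.427, 0.505 and 0.607 in males. This ratio overlapped fully between the sexes.

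The share of the 4 gamma genes among heavy chain constant counts, Ighm included and Ighd and Igha not, was small everywhere. In females it was 2.78% (95% Wilson interval 2.69 to 2.87), 2.97% (2.88 to 3.06) and 2.35% (2.25 to 2.45). In males it was 2.37% (2.29 to 2.45), 1.41% (1.33 to 1.5) and 1.13% (1.06 to 1.21). Male replicates 2 and 3 were below all other libraries, while male replicate 1 and female replicate 3 lay within each other's intervals, which cover counting error only. Means were 2.7% ± 0.318 in females and 1.64% ± 0.647 in males (SD, n = 3 each), and no test was run on this share.

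The make-up of the gamma counts also differed by library. Ighg2b took the most in every library, from 47.9% to 75.6%. Ighg2c took 26.4%, 38.4% and 10.8% in females and 18.7%, 23.2% and 11.9% in males. Both replicates numbered 3 thus had the lowest Ighg2c share of their sex. Ighg1 took 3.05% to 16.6% and Ighg3 3.90% to 13.4%.

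Relative to Ighm, whose chains it joins in the IgM pentamer, Jchain counts were 2.61%, 7.60% and 7.19% in females and 2.36%, 3.56% and 4.88% in males. The replicates numbered 1 had the lowest value of each sex. Means were 5.80% ± 2.77 in females and 3.60% ± 1.26 in males (SD, n = 3 each). Ighm per count of Cd79a, which encodes a signalling chain of the B cell receptor, varied far less, between 2.13 and 2.53.

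**Figure D3:**
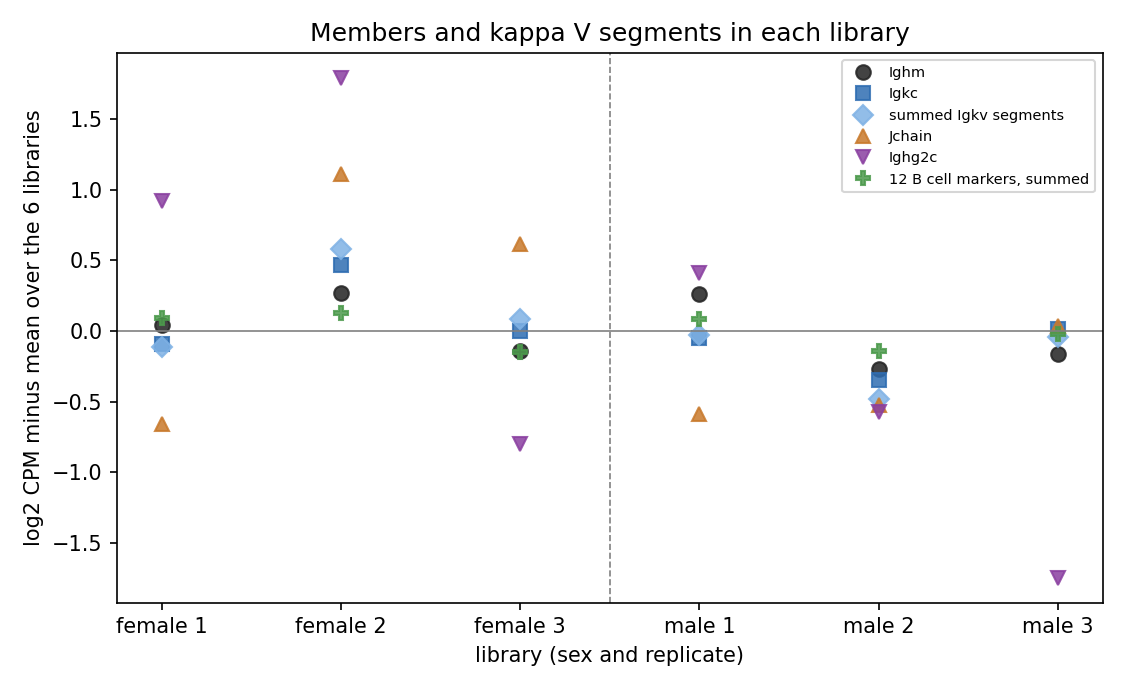
Log2 CPM of 4 members, the summed Igkv segments and the summed 12 B cell markers in each library, each minus its mean over the 6 libraries. Igkc and the Igkv segments move together, highest in female replicate 2 and lowest in male replicate 2, while the B cell markers stay near 0 and Ighg2c and Jchain range widely.

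V segments encode the variable part of each chain and are spliced to the constant exons in the same mRNA, so they are no independent measure of the members. Of the kappa V segments (Igkv), 59 had a row and 55 were tested, and 53 of the 55 were fitted below 0 with a median log2 fold change of -0.36. No segment passed at an adjusted p under 0.05, and 7 were lower in males at an unadjusted p under 0.05, beside 4.76% of all genes. Their summed level was 346, 558 and 397 CPM in females and 367, 267 and 362 CPM in males. Female replicate 2 was the highest library for 36 of the 55 and male replicate 2 the lowest for 44, against 16.2% and 21.9% of all genes.

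These counts depended on single libraries. Without female replicate 1, 55 of 57 tested Igkv segments were fitted below 0 (median -0.48) and 15 were lower at an unadjusted p under 0.05 (4.08% of all genes in that fit), and without male replicate 1, 53 of 55 (median -0.49) and 8 (4.71% of all genes). Without female replicate 2, 43 of 57 were below 0 (median -0.13) and 3 were under that p (4.39% of all genes), and without male replicate 2, 48 of 57 (median -0.25) and 3 (2.13% of all genes). With both left out, a setting chosen after seeing the data, 33 of 57 were below 0, the median was -0.04 and 0 were lower at an unadjusted p under 0.05 (2.58% of all genes). Igkv12-46, named after its values were seen, stood at 14.4, 23.3 and 13.7 CPM in females and 10.6, 7.96 and 10.1 CPM in males, without overlap. Of the 79 tested V segments, DESeq2 called this one alone (adjusted p = 0.0311), beside 1.8% of all genes. EdgeR did not call it (log2 fold change -0.84, adjusted p = 0.244).

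**Figure D4:**
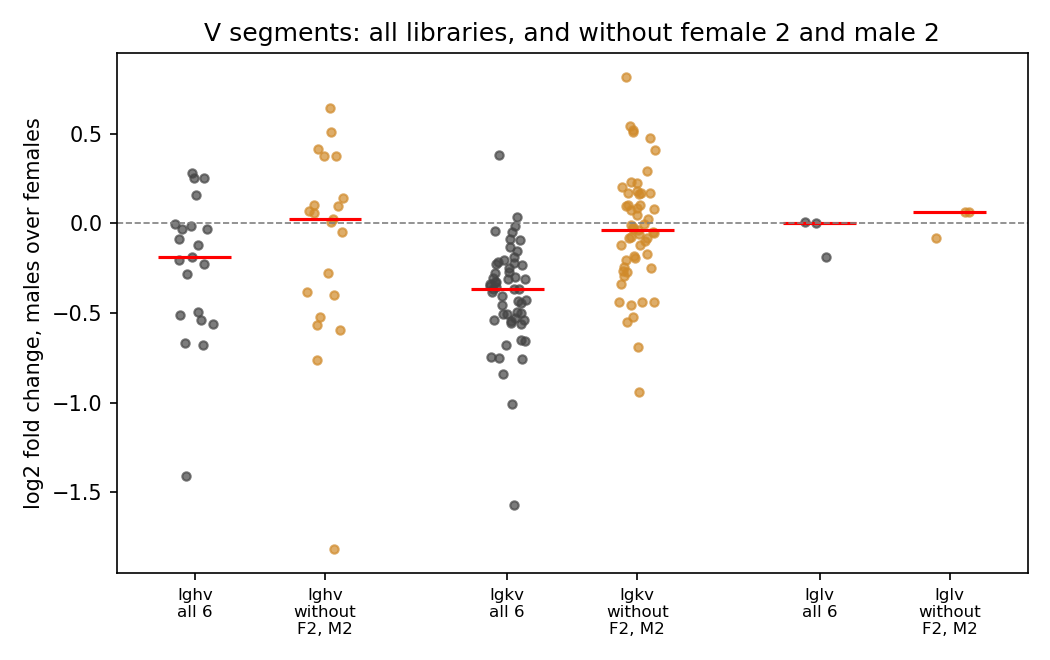
Log2 fold change of males over females for each tested heavy (Ighv), kappa (Igkv) and lambda (Iglv) V segment, with all 6 libraries (grey) and without female replicate 2 and male replicate 2 (orange), and a red line at each median. The Igkv median moves from -0.36 to -0.04 once both libraries are left out.

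Of the heavy chain V segments (Ighv), 25 had a row and 21 were tested, of which 17 were fitted below 0 (median -0.19) and 0 were under an unadjusted p of 0.05. With 1 library left out, between 13 and 16 of 21 were below 0, with medians from -0.39 (without male replicate 1) to -0.07 (without female replicate 2), and without both replicates numbered 2 only 9 of 21 were below 0 and the median was 0.03. Their summed level was 65.6, 78.9 and 71.8 CPM in females and 78.8, 54.3 and 54.8 CPM in males. Male replicates 2 and 3 were the lowest, as they were for the gamma share. The table holds rows for 25 of 183 annotated Ighv, 59 of 160 Igkv and 3 of 3 Iglv segments. Among the 5 most abundant of those with a row were Iglv1, Iglv2 and Iglv3 of the lambda locus, with Iglv1 at 140.5, 134.5 and 134.9 CPM in females and 148.7, 124.7 and 138.9 CPM in males. The others were the V pseudogene Igkv11-106, at 18.3, 36.1 and 21.9 CPM against 21.1, 17.6 and 19.7 CPM (edgeR adjusted p = 0.617), and Igkv4-68, at 12.4, 35.1 and 13.7 CPM against 16.9, 10.1 and 15.1 CPM (edgeR adjusted p = 0.703). Both had their highest value in female replicate 2 and their lowest in male replicate 2. The 3 lambda segments were also lowest in male replicate 2, but none was highest in female replicate 2.

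The lambda constant gene Iglc2 was the only tested gene of 6 further constant genes. It stood at 163.7, 154.9 and 136.2 CPM in females and 153.3, 133.7 and 144.9 CPM in males (log2 fold change -0.08, SE 0.120, edgeR adjusted p = 0.88). Counts of Igkc per count of Iglc2 were 6.11, 9.52 and 7.83 in females and 6.73, 6.26 and 7.44 in males, so that kappa stood highest against lambda in female replicate 2. Ighe, the constant gene of IgE, had 0 counts in all 6 libraries, which allows up to 3 counts, or 0.0514 to 0.0629 CPM.

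Genes of the stages before and after the mature B cell were compared as fixed lists, none of which had a gene past the edgeR threshold. Of 6 tested genes of the surrogate light chain and V(D)J recombination in pro-B and pre-B cells, 6 were fitted above 0 (median 0.18) and 0 had an unadjusted p under 0.05. The signs rested on single libraries: 3 of the 6 were below 0 without female replicate 2 (median 0.01) and without male replicate 1 (median 0.02), and the median was 0.38 without female replicate 1. Rag1, a subunit of the recombinase, was at 96.1, 47.8 and 87.2 CPM in females and 149, 96.5 and 51.7 CPM in males (log2 fold change 0.36, SE 0.373). Vpreb3, a protein bound to light chains in precursor B cells, was at 99.1, 66.8 and 87.4 CPM against 112, 98.2 and 79.4 CPM. For both genes the lowest female was replicate 2, where Igkc and Jchain were highest.

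Of 12 B cell genes, 9 were fitted below 0 (median -0.07). At an unadjusted p under 0.05, 1 was higher in males, beside 5.03% of all genes. With 1 library left out, between 6 and 10 were below 0 and the median lay between -0.19 and -0.01. The count at that p was 0 without female replicate 2 and without male replicate 3, and without female replicate 3 it was 2, both lower in males. With all 6 libraries, the gene under that p was Pax5, the transcription factor that keeps B cell identity, at 268.6, 234.6 and 213.9 CPM in females and 281.9, 287.9 and 356.9 CPM in males (log2 fold change 0.37, SE 0.144, edgeR adjusted p = 0.43). Cd79b, the partner of Cd79a in the B cell receptor, overlapped between the sexes, at 1043, 1090 and 931.7 CPM against 1046, 907.5 and 1084 CPM.

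Of 13 tested plasma cell genes, 8 were fitted below 0 (median -0.18), and 4, all lower in males, did not overlap (14.5% of all genes). At an unadjusted p under 0.05, 2 were lower in males, beside 4.76% of all genes. That count was 0 without female replicate 3 and without male replicate 2, 1 without female replicate 1 and without female replicate 2, and 4, with 2 genes higher in males at that p, without male replicate 3. Sdc1, the plasma cell surface proteoglycan CD138, was at 35.7, 26.6 and 37.5 CPM in females and 26.2, 17.7 and 27.6 CPM in males (log2 fold change -0.48, SE 0.190, edgeR adjusted p = 0.441). Txndc5, a disulfide isomerase of the endoplasmic reticulum, was at 117.9, 127.6 and 125.2 CPM against 106.9, 92.9 and 105.9 CPM without overlap (log2 fold change -0.28, SE 0.112, edgeR adjusted p = 0.45). Sdc1 was not highest where Jchain was: female replicate 2, with the most Jchain, had the least Sdc1 of the females. Tnfrsf17, the plasma cell receptor BCMA, had at most 18 counts in a library and was not tested.

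Of 10 genes of class switching and hypermutation, 0 were under an unadjusted p of 0.05, and 7 were fitted below 0 (median -0.10). With 1 library left out, between 6 and 9 were below 0, with medians from -0.12 (without male replicate 1) to -0.06 (without female replicate 2 and without male replicate 3), and without both replicates numbered 2 the median was -0.00983. Msh6, a mismatch repair protein, was the most abundant of them, with a log2 fold change of -0.10 (edgeR adjusted p = 0.821), and Ung, the uracil glycosylase, had the largest difference of them, -0.27 (edgeR adjusted p = 0.763).

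Of 8 tested genes of antibody receptors and transport, 4 were fitted below 0 and 4 above (median -0.06). At an unadjusted p under 0.05, 2 were lower in males, beside 4.76% of all genes. This count was 0 without female replicate 2 (median 0.04) and without male replicate 2, 1 without female replicate 3, and 0, with 1 gene higher in males and a median of 0.04, without male replicate 1. Fcgrt, the neonatal Fc receptor that recycles IgG, was at 241, 253.9 and 236.1 CPM in females and 168.3, 158.7 and 228.3 CPM in males without overlap (log2 fold change -0.40, SE 0.151, edgeR adjusted p = 0.418). Fcer1g, the shared signalling chain of Fc receptors, was at 204.1, 239.4 and 223.5 CPM against 200.1, 222 and 256.8 CPM (log2 fold change 0.03).

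Markers of other cells differed in summed level between the libraries of the sexes. Yet 0 endothelial, 0 neutrophil, 0 erythroid and 0 T cell genes passed the adjusted threshold in edgeR, beside 0.0411% of all genes. DESeq2 called 4, 5, 0 and 1 of them, beside 1.8% of all genes. Summed endothelial markers were 433, 325 and 433 CPM in females and 256, 191 and 270 CPM in males. All 12 of 12 were fitted below 0, against 50.2% of all genes. At an unadjusted p under 0.05, 9 were lower in males, and 5 did not overlap, beside 4.76% and 14.5% of all genes. Summed neutrophil markers were 17700, 21600 and 20900 CPM in females and 30100, 41600 and 37200 CPM in males. Of the 10 genes, 8 did not overlap and 7 were higher in males at that p, beside 14.5% and 5.03% of all genes. Summed erythroid markers were 12100, 15500 and 17400 CPM against 27100, 18400 and 19400 CPM, also without overlap. Of the 8 genes, 4 did not overlap and 5 were higher in males at that p, beside 14.5% and 5.03% of all genes. The 5 became 0 without female replicate 1, female replicate 2 or male replicate 1. Male replicate 2, lowest for 4 members, had the highest neutrophil sum and the lowest endothelial sum. Summed T cell markers were 64.2, 76.1 and 68.8 CPM in females and 55.1, 50.3 and 58.5 CPM in males, without overlap. Cd4 made up most of this sum, with a mean of 41.6 CPM, ahead of Cd3d at 8.3 CPM. Of the 6 genes, 1 (Cd4) did not overlap, and it alone was lower in males at that p. By fitted difference, 3 of the 6 were below 0 and 3 above (median -0.05). The lower sum in males was thus not shared by the whole T cell list. The part of these cells in the antibody gene levels was not tested. Summed B cell markers were 4350, 4460 and 3680 CPM in females and 4320, 3700 and 4020 CPM in males.

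The genes closest to Ighm, Igkc and Jchain in their pattern over the 6 libraries were found among 16102 genes with a mean of at least 1 CPM, by the Euclidean distance between log2 CPM profiles centred on their means. For Ighm, whose profile spans 0.54 log2 units, these were Mrgpre, Galm and Cul9, at distances of 0.118, 0.122 and 0.137. For Igkc, which spans 0.82, they were the processed pseudogene Gm13921 at 0.115, an identifier without a symbol at 0.119, and Nop53 at 0.155. For Jchain, which spans 1.76, the closest were Apoc1 at 0.611, Col2a1 at 0.64 and the kappa segment Igkv4-57-1 at 0.665. With 6 libraries and so many genes, near profiles are a description only.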

How the data were processed

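RNA of purified BECs was measured in 6 libraries. The authors deposited whole-number counts per gene, not normalized or pooled. The paper names STAR, GRCm39 and featureCounts, and the submitters' processing notes TopHat2 2.0.11, featureCounts and mm9, so the build of the counts is unsettled and coordinates are those of GENCODE M39 alone. Annotation release and strand setting are not given in the sources used here, and without strand a gene and its antisense partner cannot be told apart. Of 37991 identifiers, 31073 (96.2% of counts) matched.

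The contrast of males over females was fitted over 19480 genes in R 4.3.3. It used TMM scaling, the default low-count filter by sex and the robust quasi-likelihood model of edgeR 4.0.16. On simulated data, the model recovered 52% of 2-fold and 78% of 4-fold changes at an adjusted p under 0.05. For 8-fold and 16-fold changes it recovered 96% and 92%. SE is the log2 fold change over the square root of F. Spread used log2(CPM + 0.5). Alternatives were DESeq2 1.42.0, its size factors, total counts, other filters, immunoglobulin genes left out of library sizes, a replicate block and each library left out.

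Members and lists were chosen with earlier results of these data known. The naming rule allowed the members, the most abundant and most different genes of each list, 5 V segments and the nearest profiles, and of these the most abundant and most different gene of each antibody or B lineage list is named. Wilson intervals and the 3-count floor cover counting error only, since amplified reads are not independent molecules, whereas intervals of fold changes come from the edgeR fit and include the spread between libraries.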

Additional observations from a re-analysis of the deposited data

How the results depend on the processing

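Members called at an adjusted p under 0.05 numbered 0 in each of the 14 alternatives, and the fitted difference stayed below 0 in all of them for Ighg1 (-1.27 to -0.168), Ighg2b (-1.20 to -0.221), Ighg2c (-2.03 to -0.598), Ighg3 (-2.11 to -0.387) and Jchain (-1.20 to -0.356). Ighm ran from -0.284 to 0.00909 with 1 library left out and was 0.116 without both replicates numbered 2, where Igkc was 0.0333; the cause was not tested. Whether replicate numbers pair the samples is unsettled. Same-numbered libraries correlated at 0.248, 0.0613 and 0.361 in their deviations, and libraries with different numbers at -0.335 to 0.162. Male replicate 2 correlated more with female replicate 1, at 0.162, than with female replicate 2. With a replicate block, all-gene calls were 428 against 8, and calls were 0 for members, 1 for plasma cell genes (Sdc1, -0.491), 7 for endothelial, 5 for neutrophil and 1 for T cell genes. DESeq2's Wald test called 350 genes, among them 4 endothelial, 5 neutrophil, 1 T cell and 1 V segment. With no filter on low counts 98 genes were called, 5 of them neutrophil markers, and with total counts alone 2 neutrophil markers. With 1 library left out, neutrophil calls ran from 0 to 2 and endothelial calls from 0 to 1, and 96 genes were called without male replicate 3.

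Signs of some differences turned in some settings, also of larger ones such as Igkv4-68 (-0.541 with all 6 libraries) and Rag1 (0.363). With 1 library left out, Iglv1 ran from -0.054 to 0.075, Iglv2 from -0.0561 to 0.0455, Cd79b from -0.0763 to 0.0618, Fcer1g from -0.0774 to 0.105, Rag1 from -0.0568 to 0.67 and Igkv4-68 from -0.784 to 0.104. Total counts alone gave -0.00408 for Iglv1 and -0.00932 for Iglv2, and Iglv2 was -0.00473 with no filter and -0.000673 with the block. Without both replicates numbered 2, chosen after seeing the data, Cd79b was 0.112, Igkv11-106 0.0252, Igkv4-68 0.295, Mrgpre 0.0751, Galm 0.021, Cul9 0.0469 and Gm13921 0.0113.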
